A study of Homo sapiens with 6 samples.

Results

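Protein kinase C (PKC) is a family of serine/threonine kinases, and 8 genes that encode its isoforms were examined for CpG methylation in human embryonic stem cells. They were chosen by name from 20090 protein-coding genes, as isoforms of the classical or cPKC class (PRKCA, PRKCB), the nPKC class (PRKCD, PRKCE, PRKCH, PRKCQ) and the atypical or aPKC class (PRKCI, PRKCZ). Whole-genome bisulfite sequencing of the embryonic stem cell line H9 gave 6 libraries, 3 from Conventional cells and 3 from Reset cells. Conventional cells were grown on mouse feeders with 10 ng/ml bFGF and 20% KSR. Reset cells had expressed doxycycline-inducible NANOG and KLF2, were then taken off doxycycline, and were kept in N2B27 with LIF, 1 µM PD0325901, 1 µM CHIR99021 and 5 µM of the PKC inhibitor Gö6983, also on feeders, and both cultures were held at 5% oxygen. Medium, inhibitors, passaging and transgene history changed together between the groups and cannot be told apart here. The labels do not say whether the Conventional cells carried the transgenes, or whether the 3 Reset libraries came from separate resettings. The p-values thus apply to these libraries only. Adjusted p-values rest on read counts and on a spread between libraries that was drawn toward that of all features. They can be small where libraries of the groups overlap.

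Classical isoforms respond to calcium and to the lipid second messenger diacylglycerol, nPKC isoforms to diacylglycerol without calcium, and atypical isoforms to neither. Phospholipase C makes diacylglycerol, diacylglycerol kinases remove it, and the atypical enzymes work with PAR proteins in cell polarity. Gö6983 blocks the activity of the kinase proteins. Methylation of CpGs is usually absent from CpG islands at gene starts and high along gene bodies, and a methylated island is associated with silencing. Methylation says nothing by itself about the amount of RNA or protein, and no expression values were analysed here.

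The libraries held 92023996 to 98004161 calls in Conventional and 70329213 to 80199615 in Reset, or 3.28 to 3.49 and 2.51 to 2.86 calls per CpG. A call is one read base at a CpG cytosine, and a level is the percentage of calls that were methylated. Over all calls 84.3 to 84.6% were methylated in Conventional and 29.5 to 30.3% in Reset, so the labelled states stood apart genome-wide. The main counts of lower and higher features below are therefore set beside the share of all such features. Exons, single islands and 500-base bins were not compared with the genome. Calls per CpG over the 8 genes, relative to the autosomal mean of a library, were within 0.893 to 1.12 times between Reset and Conventional. PRKCZ and PRKCD were covered less than the rest, at 0.726 and 0.715 of the autosomal mean in Conventional and 0.806 and 0.772 in Reset.

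The results turned on which part of a gene was read, as 7 stretches of the GRCh37 plus strand show. All are printed 5′ to 3′ in lower case with each CpG in capitals, and none overlaps an annotated exon. The first pair lies 500 to 1000 bases before the canonical start, where a fall was concentrated in PRKCB and PRKCH, and each is the 200 bases of that interval with the most CpGs.

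PRKCB, chr16:23846519-23846718: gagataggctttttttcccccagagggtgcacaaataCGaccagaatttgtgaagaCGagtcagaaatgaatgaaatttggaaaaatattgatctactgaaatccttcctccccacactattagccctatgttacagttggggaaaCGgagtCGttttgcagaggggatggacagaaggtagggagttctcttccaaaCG
PRKCH, chr14:61787399-61787598: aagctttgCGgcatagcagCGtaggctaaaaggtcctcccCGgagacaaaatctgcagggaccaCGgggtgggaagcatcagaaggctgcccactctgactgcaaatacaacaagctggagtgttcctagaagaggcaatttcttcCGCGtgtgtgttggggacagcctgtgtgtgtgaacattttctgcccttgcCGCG

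In PRKCB this stretch holds 5 CpGs, and 19 of 59 calls were methylated in Conventional against 5 of 58 in Reset. In PRKCH it holds 8 CpGs, with 74 of 80 calls methylated in Conventional and 34 of 66 in Reset. The Conventional libraries lay at 23.8 to 38.9% in PRKCB and 88.0 to 100% in PRKCH, above every Reset library, which lay at 4.0 to 18.8% and 30.8 to 59.3%.

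The next 3 stretches lie at the starts themselves, 100 bases before the canonical start of PRKCH and PRKCI and 200 bases before the most upstream start of PRKCE. They show the CpG-rich core that was unmethylated in both states.

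PRKCH, chr14:61788197-61788296: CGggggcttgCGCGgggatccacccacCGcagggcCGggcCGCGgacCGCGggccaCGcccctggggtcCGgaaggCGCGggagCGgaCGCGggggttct
PRKCI, chr3:169940112-169940211: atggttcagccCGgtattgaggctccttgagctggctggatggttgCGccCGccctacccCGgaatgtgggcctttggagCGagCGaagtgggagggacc
PRKCE, chr2:45878284-45878483: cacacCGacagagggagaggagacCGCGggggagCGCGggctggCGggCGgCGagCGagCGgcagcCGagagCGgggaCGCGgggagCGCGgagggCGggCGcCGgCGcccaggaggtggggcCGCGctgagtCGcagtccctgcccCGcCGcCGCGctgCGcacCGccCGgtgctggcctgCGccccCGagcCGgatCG

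The PRKCH core holds 16 CpGs in 100 bases, and 1 of 55 calls was methylated in Conventional against 2 of 74 in Reset. Conventional replicates 1, 2 and 3 gave 23, 30 and 2 of the 55 calls, so replicate 3 was hardly read there. The PRKCI core holds 6 CpGs, with 1 of 76 calls methylated in Conventional and 0 of 86 in Reset, which allows a level of up to 3.49%. Reset replicate 3 gave 7 of those 86 calls. The PRKCE stretch is the densest, with 34 CpGs and a GC content of 82.0%. There 0 of 147 calls were methylated in Conventional, which allows up to 2.04%, and 1 of 162 in Reset. Conventional replicate 2 gave 11 of those 147 calls. Such limits cover counting error only.

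The last pair of stretches is intronic and contrasts the gene body that kept least with the one that kept most.

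PRKCB, chr16:23950067-23950266: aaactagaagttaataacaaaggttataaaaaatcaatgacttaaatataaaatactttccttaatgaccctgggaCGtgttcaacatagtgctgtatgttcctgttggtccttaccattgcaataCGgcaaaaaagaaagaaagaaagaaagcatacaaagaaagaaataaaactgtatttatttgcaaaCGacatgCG
PRKCZ, chr1:2028015-2028214: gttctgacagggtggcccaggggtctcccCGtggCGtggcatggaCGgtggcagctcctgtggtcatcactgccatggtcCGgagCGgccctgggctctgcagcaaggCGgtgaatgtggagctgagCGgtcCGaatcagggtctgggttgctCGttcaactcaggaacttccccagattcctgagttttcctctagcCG

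The PRKCB stretch is CpG-poor, with 4 CpGs and a GC content of 31.5%, and lies in a 1-kb window with one of the 3 largest falls of the 8 genes. In it 54 of 56 calls were methylated in Conventional and 2 of 47 in Reset. The PRKCZ stretch holds 10 CpGs and lies in a window with one of the highest Reset levels. All 66 calls were methylated there in Conventional and 25 of 46 in Reset. Both were picked by their values and are shown as examples.

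All 8 gene bodies were less methylated in Reset than in Conventional, and they differed in how much they kept. A body is the gene span without the promoter windows of any of its transcription starts. Among all 19253 gene bodies tested, 97.9% were lower in Reset and 1.09% higher, so a fall in 8 of 8 bodies was at the level of the genome. The bodies of the 8 genes had a median of 88.9% in Conventional and 34.8% in Reset, beside 88.6% and 34.6% over all bodies.

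The classical genes lay on either side of the genome's median in Reset. PRKCB, which encodes PKCβ, was at 86.5, 86.8 and 86.6% in the Conventional libraries and 26.8, 28.1 and 27.8% in the Reset libraries. It kept 31.8% of its Conventional level, the smallest share of the 8, and its Reset level was at percentile 25.1 of all bodies (adjusted p = 1.2e-32). PRKCA, which encodes PKCα, was at 88.5, 88.6 and 88.5% in Conventional and 36.5, 37.0 and 37.3% in Reset, at percentile 62 (adjusted p = 2.7e-34). The groups did not overlap in either gene, and the gap between the 2 classical genes in Reset was wider than the range of either.

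In the nPKC class 3 of 4 bodies sat close together in Reset and PRKCD stood above them. PRKCE, which encodes PKCε, was at 89.4, 89.5 and 89.3% in Conventional and 29.5, 30.7 and 30.4% in Reset (adjusted p = 2.2e-34). PRKCQ, whose product PKCθ is known from T cell signalling, was at 89.1, 89.0 and 89.7% against 29.9, 31.2 and 30.5% (adjusted p = 5.9e-30). PRKCH, which encodes PKCη, was at 85.2, 86.2 and 86.1% against 32.0, 33.0 and 33.2% (adjusted p = 1.1e-30). Reset levels of PRKCE and PRKCQ overlapped, and every PRKCH library lay above both. PRKCD, which encodes PKCδ, was at 85.5, 84.3 and 85.6% in Conventional and 43.0, 41.3 and 40.3% in Reset, at percentile 85.8 (adjusted p = 8.3e-20).

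The atypical genes held the highest Conventional levels and, with PRKCD, the highest Reset levels. PRKCI, which encodes PKCι, was at 91.7, 89.9 and 91.6% in Conventional and 43.3, 41.4 and 40.6% in Reset, at percentile 86.6 (adjusted p = 3.0e-24). PRKCZ, which encodes PKCζ, was at 91.3, 91.4 and 91.6% in Conventional and 47.1, 45.9 and 47.5% in Reset, at percentile 96.6 (adjusted p = 1.3e-29). It kept 51.2% of its Conventional level, a kept share at percentile 92.2 of all bodies. In rising order of Reset level the genes were PRKCB, PRKCE, PRKCQ, PRKCH, PRKCA, PRKCD, PRKCI and PRKCZ. Neighbours overlapped in the pairs PRKCE with PRKCQ and PRKCD with PRKCI, and in no other pair. The exact permutation test over the libraries gave p = 0.1 for each of the 8 bodies, the smallest that 3 libraries against 3 allow.

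**Figure D1:**
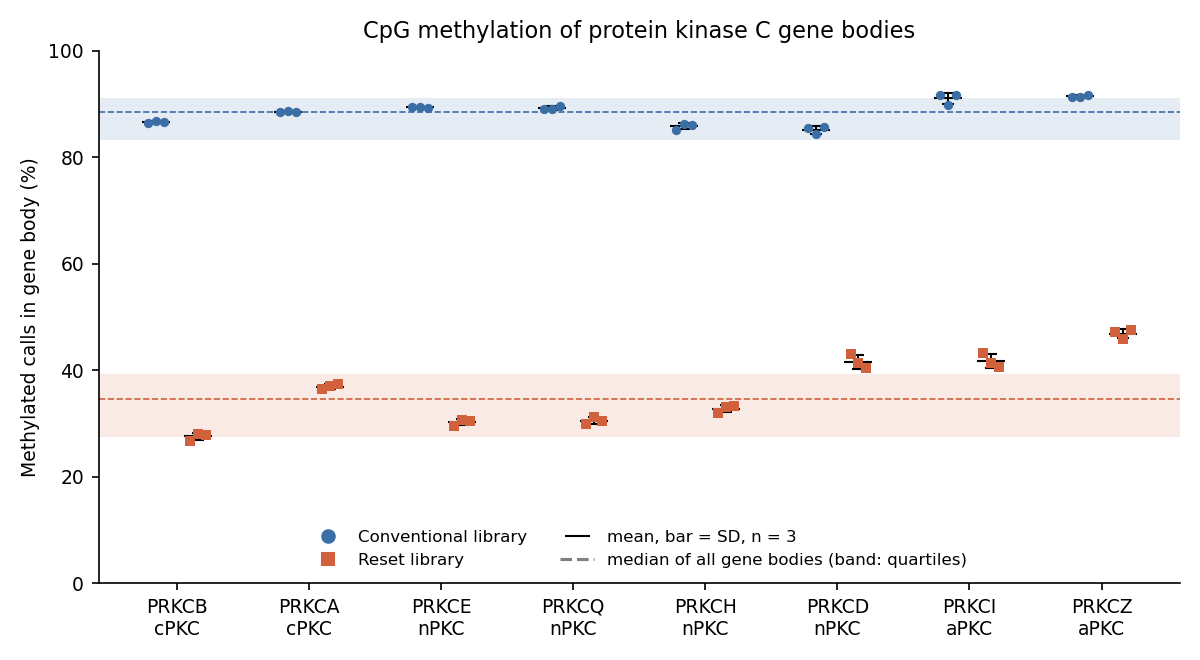
Methylation of the gene body in each library (points), with the mean and SD over 3 libraries, for Conventional and Reset, and genes ordered by class. Dashed lines and bands give the median and quartiles over all gene bodies, and Reset levels run from 27.6% in PRKCB to 46.8% in PRKCZ.

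The bodies also differed in CpG content, which the choice of genes did not use. PRKCZ has 34.5 CpGs per kb of its span and PRKCD 20.9, and the other 6 genes have 9.79 to 12.3. The densest genes were thus among those with the highest Reset levels, but PRKCI had a Reset level near that of PRKCD at 11.0 CpGs per kb. These are 8 genes of different length, from 36709 bases for PRKCD to 536646 for PRKCE, and the relation is given as a description only.

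Exons were somewhat more methylated than introns in Conventional in all 8 genes, from 89.5% in PRKCB to 96.5% in PRKCI, against 82.8% in PRKCD to 91.3% in PRKCZ for introns, all outside promoter windows. In Reset the exons of PRKCD were at 48.9% ± 3.92 (SD, n = 3) and its introns at 39.7% ± 2.55. PRKCB exons were at 33.7% ± 4.31 and introns at 27.4% ± 0.786. The gap was smaller or absent in the other 6 genes, with exons and introns at 33.3 and 30.1% in PRKCE, 38.2 and 36.9% in PRKCA, 34.0 and 32.7% in PRKCH, 30.7 and 30.5% in PRKCQ, 46.8 and 46.8% in PRKCZ and 41.3 and 41.8% in PRKCI. Exons held 33 to 195 CpGs per gene and introns 376 to 5973, so the exon values are the less precise.

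Promoters behaved differently from bodies. The 8 canonical promoters, read from 1000 bases before to 500 bases after the start, were near zero or low in both states, and 3 were lower in Reset, 1 was higher and 4 passed the test in neither direction. Among 19293 canonical promoters tested, 68.8% were lower and 4.3% higher. All 8 overlap a CpG island, here a run of 500 bases or more made by merging shorter windows. Each such window is 55% or more G and C, and its CpG count exceeds 0.65 of that expected from its bases. In Conventional 7 of the 8 were under 20%, as were 57.3% of all canonical promoters, and all 8 were under 20% in Reset. Of all canonical promoters under 20% in Conventional, a set that leaves out PRKCH, 97.8% were also under 20% in Reset. Over all canonical promoters tested, the upper quartile in Reset was 17.6%.

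Among the classical genes, the PRKCA promoter (chr17:64297731-64299230) was at 2.50, 2.08 and 1.98% in Conventional and 1.42, 2.24 and 2.11% in Reset. The groups overlapped and the difference did not pass the test (adjusted p = 0.79). The PRKCB promoter (chr16:23846304-23847803) was at 7.33, 10.0 and 12.8% in Conventional and 1.87, 3.77 and 3.85% in Reset. It was lower in Reset with no overlap, at a mean of 10.0% ± 2.74 (SD, n = 3) against 3.16% ± 1.12 (adjusted p = 0.0014 by the quasi-binomial test with limma).

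Of the nPKC genes, PRKCH alone had a canonical promoter that was lower in Reset, while another 2 starts of the same group were higher. The PRKCH promoter (chr14:61787297-61788796) was at 25.3, 31.9 and 15.1% in Conventional and 15.1, 11.5 and 2.66% in Reset (adjusted p = 0.0019). Its lowest Conventional library, at 15.12%, lay just above its highest Reset library, at 15.05%. The library spread was wide, and the share of the promoter's calls that fell 500 to 1000 bases before the start ranged from 12.8 to 24.0% in Conventional and 8.51 to 18.5% in Reset, so the libraries read the promoter's edge and core in unequal proportions. How far that unequal reading contributed was not tested. The PRKCH starts at 61789382 and 61789471, whose windows overlap that of the canonical start, were higher in Reset with no overlap. The first was at 8.11, 6.20 and 5.53% in Conventional and 13.2, 8.73 and 20.2% in Reset (adjusted p = 0.012). The second was at 8.18, 8.15 and 6.06% against 14.7, 9.43 and 21.6% (adjusted p = 0.010).

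The PRKCE promoter (chr2:45877814-45879313) was the one that was higher in Reset, and the difference was 1.08 percentage points. It was at 0.341, 0 and 0.352% in Conventional and 0.813, 1.17 and 1.96% in Reset, which is 2 methylated calls of 785 against 12 of 893. The groups did not overlap, but the adjusted p of 0.046 was close to the threshold of 0.05. It was over the threshold, at 0.062 to 0.15, without Conventional replicate 1, 2 or 3 or without Reset replicate 2 or 3. It also missed the threshold when the promoter was narrowed to 500 bases on either side of the start (adjusted p = 0.18). The other starts of its group, at 45878484, 45879499 and 45879540, were also higher in Reset with no overlap. Their means went from 0 to 0.989% (adjusted p = 0.011), from 2.86 to 6.27% (adjusted p = 0.016) and from 3.64 to 7.37% (adjusted p = 0.021). Their windows overlap that of the canonical start and share calls with it.

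The PRKCD promoter (chr3:53194225-53195724) was at 3.87, 4.47 and 4.51% in Conventional and 2.73, 4.29 and 3.25% in Reset (adjusted p = 0.54). The PRKCQ promoter (chr10:6621739-6623238, minus strand) was at 0.455, 0.463 and 2.36% against 1.51, 1.75 and 1.91% (adjusted p = 0.48). Libraries of the groups overlapped in both.

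In the atypical class the PRKCI promoter (chr3:169939212-169940711) was lower in Reset, at 3.23, 6.60 and 8.70% in Conventional and 2.12, 0.725 and 0.833% in Reset (adjusted p = 0.0013). Its groups did not overlap, and 19.9% of the Conventional level was kept. The PRKCZ promoter (chr1:1980850-1982349) was at 1.79, 0.680 and 2.04% against 0.588, 1.67 and 2.74%, with full overlap (adjusted p = 0.91). The exact permutation test gave p = 0.1 for PRKCB, PRKCE, PRKCH and PRKCI, the smallest it can give here.

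**Figure D2:**
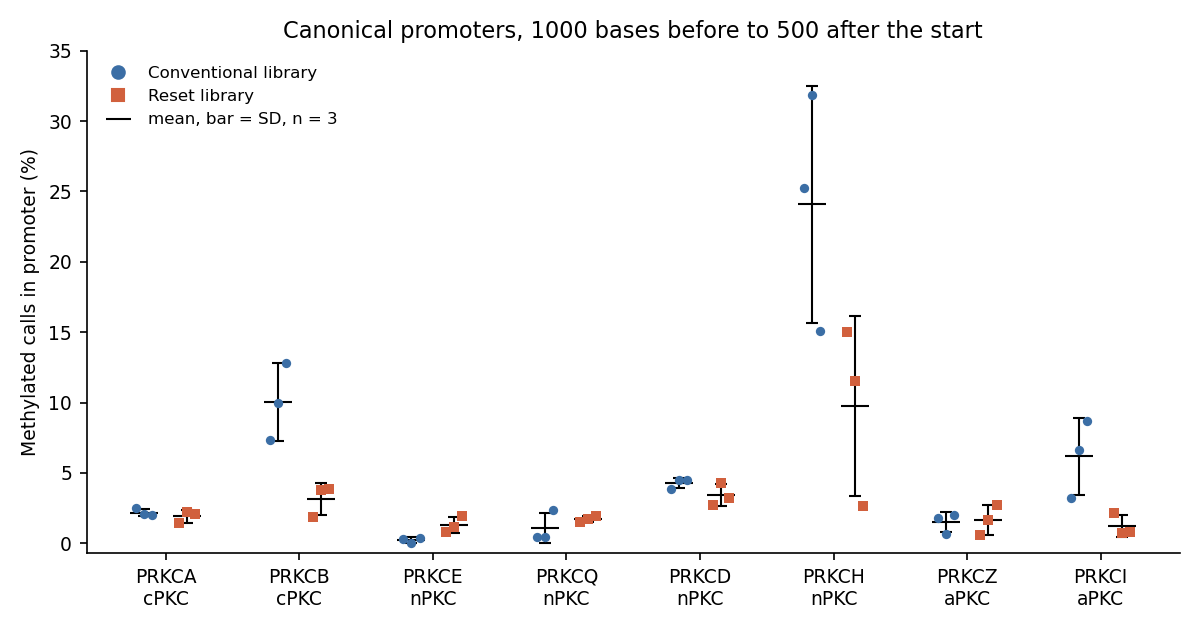
Methylation of the 8 canonical promoters in each library (points), with the mean and SD over 3 libraries, in percent of calls and by class. Levels stay under 13% in both states except in PRKCH, which spans 15.1 to 31.9% in Conventional.

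At the 3 promoters that were lower in Reset, the states differed most at the upstream edge. In the interval 500 to 1000 bases before the start, PRKCB was at 47.2, 43.8 and 52.6% in Conventional and 8.11, 20.0 and 17.2% in Reset. PRKCH was there at 88.6, 91.8 and 90.9% against 44.4, 48.9 and 25%. PRKCI was at 50, 56.5 and 56.3% against 12.9, 3.57 and 0%. The intervals hold 8, 14 and 13 CpGs, and those of PRKCB and PRKCH include the first stretches printed above.

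In the 500 bases that precede the start the same genes were low in both states. PRKCB was at 1.59% in Conventional and 1.38% in Reset, PRKCI at 1.58% and 0.667%, and PRKCH at 11.2% and 5.67%. With the window narrowed to 500 bases before and 500 after the start, none of the 3 falls passed the test. The difference was 0.14 points in PRKCB (adjusted p = 0.865), -3.84 in PRKCH (adjusted p = 0.22) and -0.50 in PRKCI (adjusted p = 0.45). This loss of calls was common in the genome, since of 7032 canonical promoters under 30% in Conventional that were lower in the wide window, 68.0% were not lower in the narrow one.

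In 4 of the other promoters the edge was almost unmethylated in both states. The same upstream interval was at 3.75% in Conventional in PRKCA, 1.79% in PRKCQ, 3.73% in PRKCZ and 0% in PRKCE, and 4.49%, 5.05%, 5.74% and 1.64% in Reset. The 0 in PRKCE rests on 206 calls and allows up to 1.46%. PRKCD was at 27.6% against 19.6% over 7 CpGs, and its libraries overlapped.

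**Figure D3:**
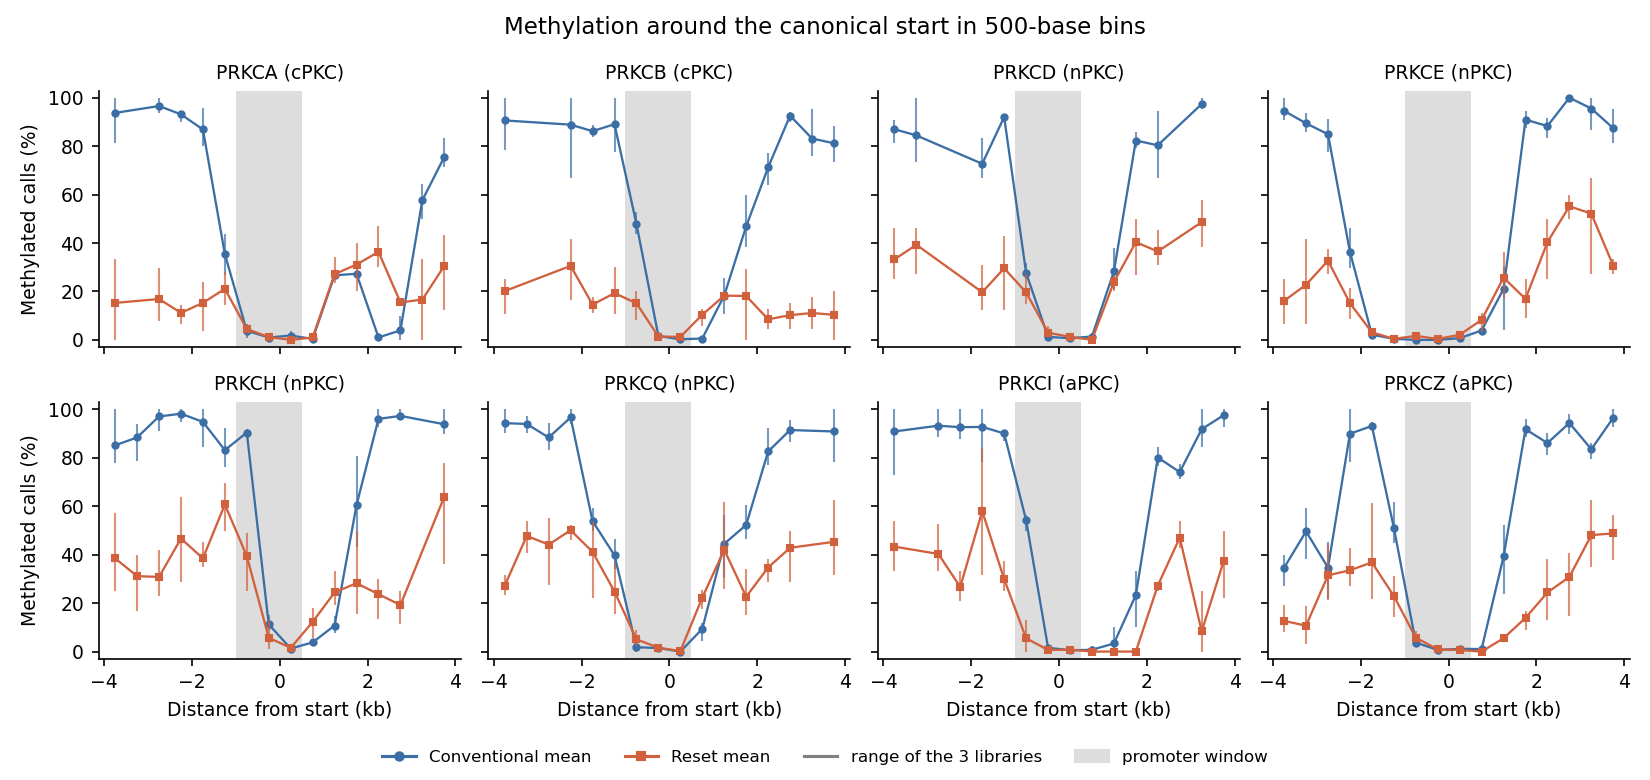
Methylation in 500-base bins within 4 kb of the canonical start of each gene, with distance in kb along the gene's strand and the promoter window shaded. Lines join the means of 3 libraries and bars give their range, and in the first shaded bin PRKCB, PRKCH and PRKCI stand at 47.9, 90.5 and 54.3% in Conventional against 15.1, 39.4 and 5.49% in Reset, while both states are low in the bins next to the start.

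On the downstream side some genes had higher levels in Reset. In the interval 500 to 1000 bases after the start, PRKCB was at 1.69, 0 and 0% in Conventional and 12.8, 12.5 and 5.88% in Reset. PRKCQ was at 12, 11.5 and 4.55% against 25.6, 23.7 and 17.6%, and PRKCH at 3.85, 3.64 and 3.92% against 13.3, 5.56 and 17.9%. PRKCE was at 3.23, 4.71 and 3.67% against 10.9, 10.4 and 3.45%, and its lowest Reset library lay inside the Conventional range. In PRKCA, PRKCD, PRKCI and PRKCZ both means were at or under 1.39%. PRKCA differed in a bin further in, 2000 to 2500 bases after the start, at 3.03, 0 and 0% in Conventional and 30, 32.0 and 47.1% in Reset over 7 CpGs and at least 12 calls a library. The PRKCQ interval lies beyond the end of its island, and over whole islands the libraries of the states overlapped in PRKCB, PRKCH and PRKCQ and did not in PRKCE (1.31 against 3.11%). These bins were picked after their values were seen and were not tested as bins. The tested 1-kb window that holds the PRKCQ interval (chr10:6621001-6622000) was at 16.5% in Conventional and 18.4% in Reset (adjusted p = 0.74). A window that holds the smaller part of the PRKCA interval (chr17:64301001-64302000) was at 17.0 and 17.5% (adjusted p = 0.86). One that holds the smaller part of the PRKCB interval (chr16:23847001-23848000) was at 0.281 and 1.26% (adjusted p = 0.18). Libraries of the states overlapped in these 3 windows. The neighbouring windows, which hold the larger part of the PRKCA and PRKCB intervals, were also tested, and their levels are not given. No tested window of PRKCA or PRKCB was higher in Reset. The windows of PRKCH and PRKCE that passed the test are given below.

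Beyond the canonical promoter the 8 genes have many annotated starts, 105 in all, which fell into 54 groups of overlapping promoter windows. Each group was read at 1 start, the canonical one where it has one. Of the 54 starts so read 48 were lower in Reset, 1 was higher (the canonical PRKCE promoter) and 5 were neither. Over all genes 86.8% of 56239 groups were lower and 2.08% higher. The 8 genes thus had a share of lower groups close to the background. Counting every start of the 8 genes, 76 of 105 were lower and 8 were higher, beside 77.2% and 2.75% of 143163 starts in the genome. The 8 that were higher were 4 starts of PRKCE, all in its canonical group, and 4 of PRKCH.

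Groups whose promoter window overlaps a CpG island, here called groups at an island, stood far apart from groups outside one. The 41 groups outside an island had medians of 91.6% in Conventional and 35.6% in Reset, and all 41 were lower and 0 higher, beside 97.7% and 0.464% of such groups in the genome. The 13 groups at an island had medians of 7.88% and 3.42%, and 7 were lower and 1 higher, beside 60.9% and 5.87% in the genome. Only PRKCZ, with 5 groups, and PRKCH, with 2, had more than 1 group at an island.

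The 46 groups other than the canonical promoters had medians by class of 92.2, 88.6 and 93.7% in Conventional and 20.7, 33.0 and 41.0% in Reset for classical, nPKC and atypical genes. The 7 classical groups all belong to PRKCB. At the start that stands for each group, 45 of the 46 were lower, beside 96.2% in the genome. Reset and Conventional libraries did not overlap in 44 of the 46, beside 97.0% of such groups in the genome.

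Among the 54 starts that stand for the groups, the 3 largest falls were in PRKCB. The start at position 24185537 of chromosome 16 went from 94.7, 94.7 and 98.1% in Conventional to 7.69, 16.7 and 8.0% in Reset, a mean difference of -85.1 points (adjusted p = 1.4e-08). The PRKCB starts at 23975037 and 24046856 fell from 93.4 to 18.6% and from 85.1 to 15.8%. Next among the 54 came a start of PRKCE at 46378192 of chromosome 2, from 86.8 to 17.9%, and a start of PRKCH at 61958911 of chromosome 14, from 95.1 to 27.3%. None of the 5 overlaps an island, and their windows hold 10 to 25 CpGs. Among all 105 starts, 3 of PRKCZ in the group of the start at 2065077 fell further than all but the first of these. They lie at 2066252, 2066429 and 2066701, and went from 90.3 to 13.8%, from 94.7 to 13.8% and from 95.2 to 13% (adjusted p = 9.1e-12 for the last).

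At the other end, a start of PRKCD at position 53202757 of chromosome 3 was the highest of the 54 in Reset. It was at 74.4, 64.4 and 70.1% in Conventional and 47.1, 71.4 and 50% in Reset. It passed the test (adjusted p = 0.010) although Reset replicate 2 lay inside the Conventional range, and the exact permutation test gave p = 0.3. The PRKCZ start at 2043093 of chromosome 1 followed, at 93.5% ± 4.21 (SD, n = 3) against 53.1% ± 9.50.

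The alternative promoters of PRKCH and PRKCZ whose windows overlap an island took different courses. The PRKCH start at 61747671, over 40 kb upstream of the canonical one, was at 10.9, 5.37 and 7.35% in Conventional and 2.87, 9.09 and 11.3% in Reset, and did not pass the test (adjusted p = 0.93). The other starts of its group, at 61747867 and 61747902, were higher in Reset, from 3.02 to 7.05% (adjusted p = 0.019) and from 3.00 to 6.59% (adjusted p = 0.022), with libraries that overlapped. The PRKCZ start at 2065077 was at 27.0, 34.3 and 32.0% against 10.1, 5.08 and 1.56%, the lowest Reset level of the 46 starts that stand for groups (adjusted p = 9.4e-07). The PRKCZ start at 2047644 was at 42.5, 57.9 and 54.6% against 28.6, 35.8 and 34.6% (adjusted p = 0.0011). The remaining PRKCZ starts with a window that overlaps an island, at 1986880 and 2004901, were methylated like the body. They were at 94.1 and 93.4% in Conventional and 40.9 and 47.2% in Reset. The starts at 1986880, 2004901 and 2047644 themselves lie outside the islands that their windows overlap.

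**Figure D4:**
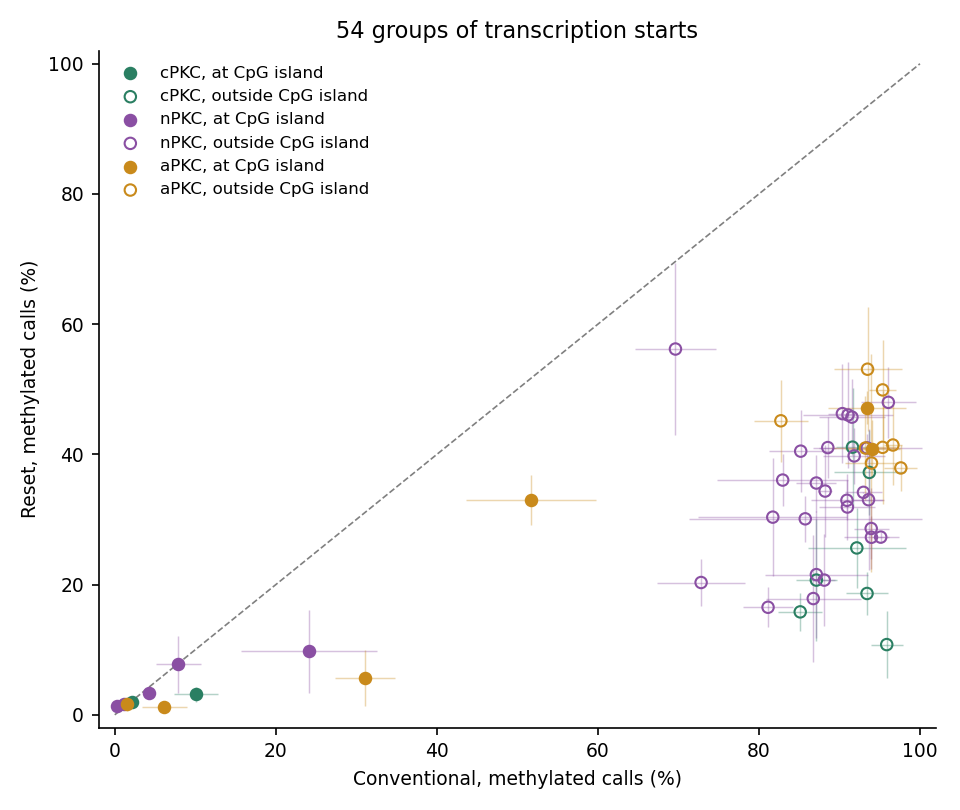
Mean methylation of the 54 groups of starts in Conventional (x axis) and Reset (y axis), in percent, with bars for the SD over 3 libraries, colours for the class, filled points for groups at a CpG island and a dashed line of equality. The groups outside islands lie below the line, at 10.8 to 56.2% in Reset, and the filled points near the origin are mostly the canonical promoters.

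PRKCZ is also the gene with most islands inside it. Of 26 islands in or at the 8 genes it holds 13, and apart from the canonical one they ranged widely. An intronic island of 3004 bases with 190 CpGs was at 44, 39.8 and 35.7% in Conventional and 25.8, 33.6 and 33.3% in Reset, so 77.7% of the level was kept. These levels rest on 62 to 110 calls a library, under 1 call per CpG, so much of the island was not read. An island of 502 bases at chr1:2081247-2081748 was at 98.2% ± 3.04 (SD, n = 3) against 67.2% ± 11.7. By contrast the island of 633 bases at chr1:2107274-2107906 went from 92.5% ± 3.93 to 25.8% ± 4.2. These islands were described and not fitted as islands.

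Windows of 1 kb showed where within the genes the levels lay. Of 2202 windows with a CpG, 2008 had at least 10 calls in every library. Of these 1978 were lower in Reset, 5 higher and 25 neither, beside 98.3% lower and 0.421% higher among 2060730 windows of the genome. Windows at 50% or more in Conventional had Reset medians from 24.6% in PRKCB to 49.6% in PRKCZ, with 36.4% in PRKCA, 28.8% in PRKCE, 29.8% in PRKCQ, 33.0% in PRKCH, 44% in PRKCD and 42.9% in PRKCI. The median over the genome was 31.1% with quartiles of 18.9 and 41.9%. The lower quartile of PRKCZ, at 42.6%, lay above the upper quartile of the genome. In Reset 60 of the 133 PRKCZ windows were still at 50% or more, as were 20 of 76 in PRKCI, 6 of 37 in PRKCD, 48 of 477 in PRKCA, 22 of 343 in PRKCB, 17 of 313 in PRKCH, 12 of 492 in PRKCE and 1 of 137 in PRKCQ, beside 9.76% of windows in the genome.

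**Figure D5:**
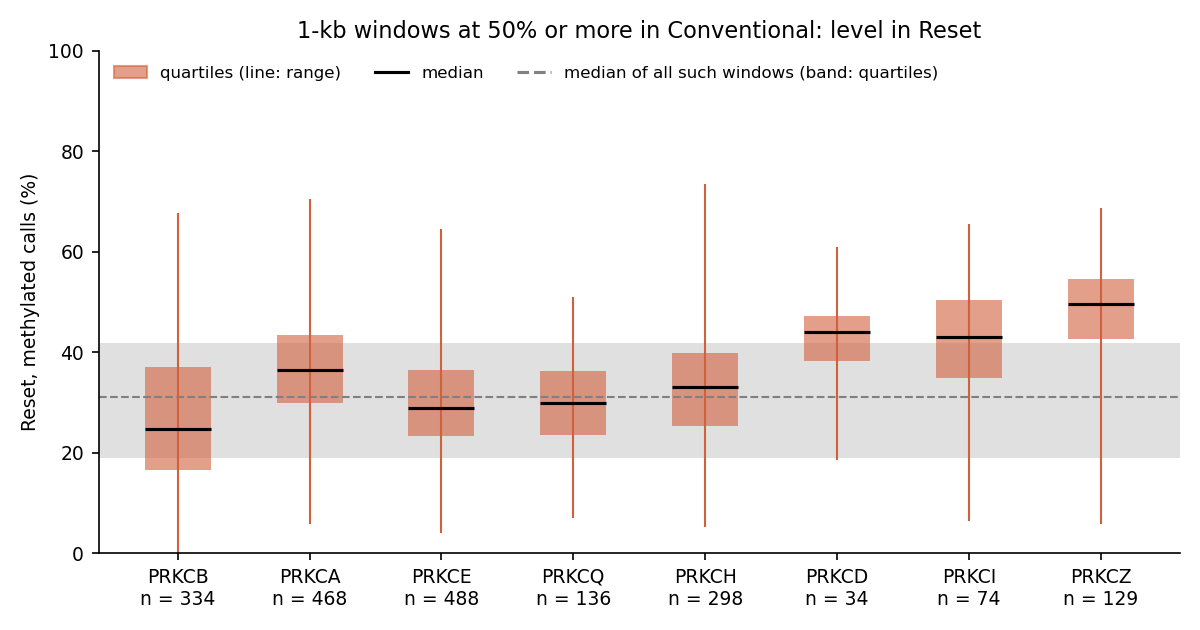
Reset methylation, in percent of calls, of the 1-kb windows of each gene that were at 50% or more in Conventional (n windows under each gene), as median, quartiles and range, with the median and quartiles of all such windows of the genome in grey. The box of PRKCZ lies above the grey band, and the medians of PRKCB, PRKCE and PRKCQ lie under the dashed line.

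The 5 windows that were higher in Reset belonged to PRKCH (3) and PRKCE (2), both of the nPKC class, and 4 of the 5 overlap an island and an exon near a start. A PRKCH window centred 1204 bases after the canonical start was at 10.0, 9.28 and 8.53% in Conventional and 21.5, 15.2 and 27.9% in Reset (adjusted p = 1.4e-05). A PRKCE window centred 687 bases after its start was at 2.90, 5.08 and 4.65% against 12.9, 9.92 and 5.70% (adjusted p = 0.0017). The PRKCE window that covers the start was at 0% in all 3 Conventional libraries, 0 of 575 calls, which allows up to 0.522%. In Reset it was at 1.03, 1.43 and 0.957%, or 8 of 683 calls (adjusted p = 0.0055). In these 3 windows the groups did not overlap.

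The other two rises had overlapping groups. The window at the alternative PRKCH start was at 1.99, 1.45 and 2.89% in Conventional and 1.68, 8.18 and 9.45% in Reset (adjusted p = 6.7e-05). An intronic PRKCH window at chr14:61933001-61934000 was at 16.7, 20.6 and 33.3% against 30.8, 30.5 and 53.1% (adjusted p = 0.023). The exact permutation test gave p = 0.3 for both.

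Of the windows at 50% or more in Conventional, 2 of 1961 kept at least 80% of that level, beside 2937 of 1996007 in the genome. A PRKCH window with 5 CpGs (chr14:61890001-61891000) was at 90.6, 100 and 81.8% in Conventional and 90.0, 69.6 and 61.1% in Reset, with at least 10 calls a library. It was lower in Reset by the model (adjusted p = 0.017) although libraries overlapped, and the exact permutation test gave p = 0.2. An exonic PRKCA window with 30 CpGs (chr17:64799001-64800000) was at 56.7, 50.6 and 61.4% against 53.8, 57.4 and 38.2% and did not pass the test (adjusted p = 0.12). The highest Reset levels that rest on more CpGs were in a pair of adjacent PRKCZ windows, chr1:2028001-2029000 with 31 CpGs and chr1:2029001-2030000 with 29. They were at 97.4 and 94.6% in Conventional and 68.6% ± 6.75 and 68.3% ± 4.61 (SD, n = 3) in Reset. The PRKCZ stretch printed above comes from the first of them. A PRKCA window with 5 CpGs was at 70.6% ± 21.3 and a PRKCB window with 9 CpGs at 67.7% ± 16 in Reset, where single libraries ranged from 47.1 to 88.5% and from 50 to 81.0%.

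The steepest falls among the windows were all in introns of PRKCB. A window centred 98197 bases into the gene, chr16:23945001-23946000, was at 100, 88.1 and 90.6% in Conventional and 0, 4.55 and 5.00% in Reset. The window at chr16:23950001-23951000, which holds the PRKCB stretch printed above, was at 96.2, 100 and 92.3% against 5.26, 4.0 and 11.1%. The window at chr16:23971001-23972000 was at 100, 95 and 92.6% against 0, 5.56 and 8.70%. They hold 6 to 8 CpGs and at least 18 calls a library.

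The enzymes and partners around PKC were read from a list of 44 genes by canonical promoter and body. All 44 bodies were lower in Reset, from a median of 88.1 to 34.4%, beside 97.9% of all bodies that were lower. Of the 44 promoters 25 were lower and 1 was higher, beside 68.8% and 4.3% of all canonical promoters, and 30 were under 20% in Conventional, beside 57.3%. Among phospholipases C, which make diacylglycerol, 6 of 12 promoters were lower and 1 higher. Of 9 diacylglycerol kinases 4 were lower, of 9 other diacylglycerol-responsive proteins 6, and of 14 kinases, phosphatases, scaffolds and substrates 9.

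The promoter that was higher belonged to PLCB4, a phospholipase C beta enzyme, at 1.28% in Conventional and 3.71% in Reset (adjusted p = 0.035). The largest differences were falls of promoters that were methylated in Conventional. RASGRP4, a diacylglycerol-responsive Ras activator, went from 73.8 to 8.36% (adjusted p = 4.8e-09). The phospholipase C gene PLCD4 went from 74.7 to 11.2% (adjusted p = 1.2e-07), and DGKA, a diacylglycerol kinase, from 63.9 to 11.3% (adjusted p = 5.2e-07). PHLPP2, a phosphatase that acts on PKC, went from 58.3 to 15.0% (adjusted p = 1.1e-07). None of the 8 PKC promoters had a Conventional level of that kind.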

How the data were processed

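Genomic DNA of 3 Conventional and 3 Reset libraries of H9 cells was sonicated, ligated to methylated adapters, treated with bisulfite and amplified. Per the labels the authors used Trim Galore, Bowtie2 and Bismark 0.9.0 with GRCh37, while the paper's methods name an earlier Bismark version, and which one made the files was not settled. The deposited files give, for each cytosine, counts of methylated and unmethylated calls and the percent methylated, which the authors computed from those counts and which equalled their ratio. No normalization was applied. Removal of duplicate reads is not given in the sources used here, and the bisulfite conversion rate was not analysed here.

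Positions were counted from 0 in the files (99.8% at a CpG of GRCh37 in each library) and are printed counted from 1. Strands of a CpG were summed on chromosomes 1 to 22 and X. Starts, genes and exons came from GENCODE release 44 lifted to GRCh37. CpG islands were predicted from the sequence, and no repeats were annotated. Libraries were grouped by the condition in the labels.

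Calls were summed over promoters (1000 bases before to 500 after each start), bodies and 1-kb windows, each required to have 10 calls or more per library. Levels are mean and SD over libraries. Groups were compared by the likelihood-ratio F test of a logistic model with quasi-binomial variance, in numpy 2.4.6 and scipy 1.17.1. The dispersion was squeezed with limma 3.58.1 in R 4.3.3 and kept at 1 or more, and p was adjusted by Benjamini-Hochberg over all 143163 starts, 19253 bodies or 2060730 windows of the genome, with a threshold of 0.05. The test was tried on simulated calls, and the outcome is not given here. Single levels were also compared by a two-sided exact permutation test. Starts of a gene whose promoter windows overlap were counted as 1 group, represented by the canonical start where it has one.

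The text names all 8 genes, other groups of starts that were higher or among the 5 largest falls (those at 20% or more in Reset, also in the rule, appear in the plot of starts only), the 5 windows that rose most, the 5 highest windows in Reset, and of the 44 listed partners the 4 largest differences and any rise. Further starts, islands, bins and windows with large falls were named after their values were seen. The genes and lists were chosen with earlier results of these data known. The alternatives tried were other minimum numbers of calls, promoter windows, transcripts and body definitions, a replicate block, Fisher's exact test on pooled calls, a limit on calls per CpG, leaving out each library, and, added after seeing the data, counting every start.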

Additional observations from a re-analysis of the deposited data

How the results depend on the processing

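Under the alternatives 200 values of single genes and 65 counts kept their direction and their side of the threshold or stayed within 1.5 times, 11 values lost their call and 15 counts moved. The 48 groups of starts lower in Reset became 6 of 11 with basic transcripts only (18911 of 25971 in the genome) and 3 of 8 with canonical starts only (12999 of 19293), and 76 of 105 with every start counted, which was chosen after seeing the data. The 1 group that was higher became 8 starts with every start counted, and 0 with at least 30 calls, with the window of 500 bases on either side, with basic transcripts only and with canonical starts only, and ranged from 0 to 1 when 1 library was left out. That group is the PRKCE promoter, whose adjusted p was 0.052 to 0.18 in the settings that gave 0. The narrow window also turned the sign of the promoter difference in PRKCB, to 0.136 points, PRKCD, to 1.096, and PRKCZ, to -0.292. The PRKCZ difference, which passed no test, ranged from -0.268 to 0.412 when 1 library was left out and turned negative without Conventional replicate 2 (-0.190) or Reset replicate 3. Windows lower in Reset numbered 675 of 696 tested with at least 30 calls, beside 520880 of 547388 in the genome. Without those at promoters of the 8 genes, windows higher fell to 1 of 1874, beside 8668 of 2060596 in the genome. The replicate block gave 48 groups lower and 1 higher, 8 bodies lower, and 1973 windows lower and 5 higher. In the genome it gave 48770 of 56239 groups lower and 1170 higher, and 18855 of 19253 bodies lower. Of 2060730 windows of the genome, 2018517 were then lower and 7464 higher. Replicate numbers are shared by the groups in the labels, but deviations of same-numbered libraries did not go together over the bodies (correlations of -0.0078, -0.013 and -0.028), so the block was not taken as a pairing. With about 3 calls per CpG and library, single CpGs were not compared, and a promoter or window that missed the threshold may still differ.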
